A study of Mus musculus with 2 samples.

Results

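Transcripts whose names open with 1700 carry the RIKEN label of cDNA clones from adult mouse testis, and their levels were compared between the airway epithelium of fetal mouse lungs at embryonic days E18.5 and E14.5. A transcript belonged to the set when its name as deposited was 1700, 3 digits, a letter, 2 digits and Rik, on a probe that was not a control. This gave 429 transcripts, carried by 526 of the array's probes, out of 27742 transcripts by deposited name. The probe descriptions of 214 of them name adult male testis cDNA, and those of 186 name only a RIKEN cDNA gene. The name records the library and not a function: by the RefSeq gene names, 362 transcripts were given 1 current gene, of which 198 still had a RIKEN name and 164 had another symbol, while 5 matched several genes and 62 matched none.

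The study sought effectors of FOXJ1, the forkhead transcription factor that switches on the genes of motile cilia. Both groups were wild-type male CD-1 fetuses without any transgene: 1 lung at E18.5, labelled with Cy5 (red), and 1 lung at E14.5, labelled with Cy3 (green). Airway epithelium from within the lobes was laser-dissected from stained cryosections, and both RNAs were amplified once and hybridised together to 1 array of 60-base probes. Each age is therefore 1 sample from 1 animal, with no replicate and no dye swap, so age cannot be told apart from dye, animal or dissection, and no p-value was computed.

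Motile cilia and sperm tails are built on the same scaffold, the axoneme, in which paired microtubules carry dynein arms, radial spokes and proteins lining their inner wall. Multiciliated cells of the airway and spermatids therefore make many of the same proteins. Spermatids also make products with no role in cilia, such as those of the acrosome, of chromatin packaging and of sperm-egg fusion. FOXJ1 and RFX factors are the best known regulators of ciliary genes, and RFX factors bind a palindromic element called the X-box.

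Promoters are shown for Fam166c and for the 4 genes among the protein-coding transcripts past 2-fold towards E18.5 whose promoter held a full X-box. Fam166c was chosen as a gene past 8-fold whose promoter held both GTTGCC and TGTTTAC, so its matches were a condition of the choice. It also had the largest ratio among those whose promoter was in the sequence table. Each runs from 250 bases before to 50 bases after the annotated start, 5′ to 3′ on the gene's strand, from RefSeq on GRCm38.p6. Capitals mark matches on either strand to the full X-box GTTNCCNNGGNAAC, to its shorter arm GTTGCC and to the forkhead motif TGTTTAC. The windows lie at chr5:30465827-30466126 (+) for Fam166c, chr3:106001448-106001747 (-) for Pifo, chr8:45975203-45975502 (-) for 1700029J07Rik, chr15:79141202-79141501 (-) for 1700088E04Rik and chr17:8988083-8988382 (+) for 1700010I14Rik.
Fam166c: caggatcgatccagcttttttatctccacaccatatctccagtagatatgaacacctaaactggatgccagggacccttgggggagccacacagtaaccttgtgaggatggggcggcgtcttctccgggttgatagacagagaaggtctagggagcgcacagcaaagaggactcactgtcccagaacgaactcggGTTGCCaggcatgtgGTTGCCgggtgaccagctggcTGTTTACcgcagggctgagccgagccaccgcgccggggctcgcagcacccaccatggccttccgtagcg
Pifo: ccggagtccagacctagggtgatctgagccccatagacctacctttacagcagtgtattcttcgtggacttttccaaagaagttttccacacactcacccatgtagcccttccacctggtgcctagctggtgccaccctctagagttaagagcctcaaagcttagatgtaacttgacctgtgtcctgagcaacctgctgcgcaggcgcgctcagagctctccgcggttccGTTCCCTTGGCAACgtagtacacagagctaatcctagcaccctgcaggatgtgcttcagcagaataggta
1700029J07Rik: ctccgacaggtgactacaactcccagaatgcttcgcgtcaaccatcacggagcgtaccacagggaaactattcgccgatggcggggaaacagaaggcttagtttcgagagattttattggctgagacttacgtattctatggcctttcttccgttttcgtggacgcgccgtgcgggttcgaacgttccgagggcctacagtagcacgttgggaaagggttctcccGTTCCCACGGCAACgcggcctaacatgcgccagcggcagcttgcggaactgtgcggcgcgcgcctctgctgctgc
1700088E04Rik: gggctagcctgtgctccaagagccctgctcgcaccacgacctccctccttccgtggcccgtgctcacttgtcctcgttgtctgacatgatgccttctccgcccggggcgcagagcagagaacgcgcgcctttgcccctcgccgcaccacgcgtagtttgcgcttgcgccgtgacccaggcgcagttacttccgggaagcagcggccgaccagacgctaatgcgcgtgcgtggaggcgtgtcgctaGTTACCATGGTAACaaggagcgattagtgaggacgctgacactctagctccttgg
1700010I14Rik: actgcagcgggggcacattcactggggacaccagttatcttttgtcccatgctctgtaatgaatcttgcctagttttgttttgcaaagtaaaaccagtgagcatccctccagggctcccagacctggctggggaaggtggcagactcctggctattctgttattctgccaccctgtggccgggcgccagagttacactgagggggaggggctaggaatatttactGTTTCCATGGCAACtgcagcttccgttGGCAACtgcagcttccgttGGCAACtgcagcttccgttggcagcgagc

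A smaller share of the 429 transcripts than of all transcripts was well above background in airway epithelium. At both ages 241 were well above background by the scanner software's flag, at E18.5 only 30 were, at E14.5 only 8 were, and 150 were at neither age. Well above background in at least 1 channel were 65.0% of them, against 79.6% of all transcripts on the array. A log2 ratio of E18.5 over E14.5, or a bound where only 1 channel was well above background, was obtained for 278, and these had a median of 0.11 (quartiles -0.12 and 0.64) beside a median of 0.04 over the 21964 transcripts of any name with a value.

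Of the 278 transcripts, E18.5 exceeded E14.5 by 2-fold or more in 59 (21.2%), including 1 bound, where the share over all transcripts was 15.2%. Only 8 (2.88%) were at least 2-fold lower, where the share over all was 9.56%, and 211 lay within 2-fold. With the scanner software's processed signals the lower ones numbered 28. At least 8-fold higher were 29 (10.4%), where the share over all was 2.63%, and 0 were at least 8-fold lower, where it was 0.36%. Past 8-fold lower were 3 with the processed signals, and 1 each with a normexp offset of 16 and with the authors' value table. As counted, the gap to the whole array was wider at 8-fold than at 2-fold. These are counts by size from 1 array, without a test. In bulk material, fewer cells of a type and less RNA per cell cannot be told apart.

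**Figure D1:**
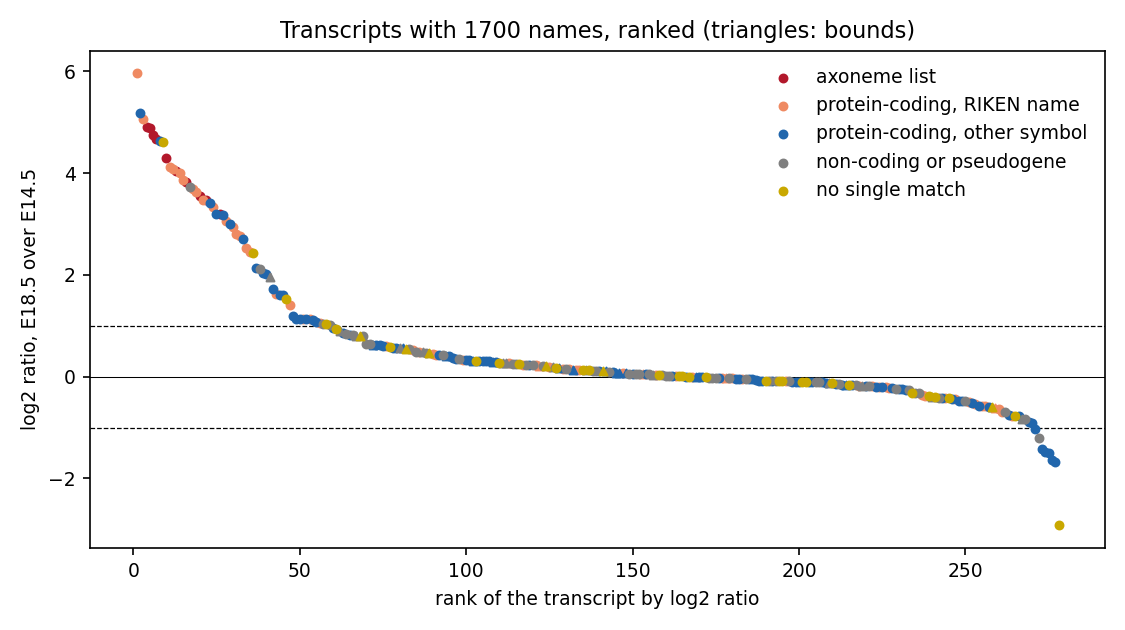
Log2 ratios (E18.5 over E14.5) of the 278 transcripts with a value, ranked, coloured by class and with bounds as triangles. Dashed lines mark 2-fold: 59 points lie above the upper line and reach 5.96, while 8 lie below the lower line and reach -2.92.

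A share close to this at 2-fold was counted for RIKEN transcripts with the other prefixes given to testis libraries, of which 88 of 427 with a value (20.6%) were higher at E18.5 and 15 (3.51%) lower. Their share at 8-fold or more was 6.09%. RIKEN transcripts with other prefixes that open with a digit were higher in 243 of 1562 (15.6%) and lower in 163 (10.4%), and those that open with a letter were higher in 100 of 670 (14.9%) and lower in 50 (7.46%). At 8-fold or more, these last sets stood at 3.14% and 3.13%. No test of these differences was possible.

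The share also moved with brightness. Among dim transcripts, with an average log2 intensity over both channels under 8, 10 of 153 with a 1700 name (6.54%) were at least 2-fold higher, against 5.40% of the others, and between 8 and 10 the shares were 25.4% and 23.6%. Between 10 and 12 they were 17 of 33 (51.5%) against 20.5%, and at 12 or more they were 16 of 29 (55.2%) against 1066 of 6661. The average includes the E18.5 signal itself, so a transcript that is high at E18.5 moves towards the bright end.

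**Figure D2:**
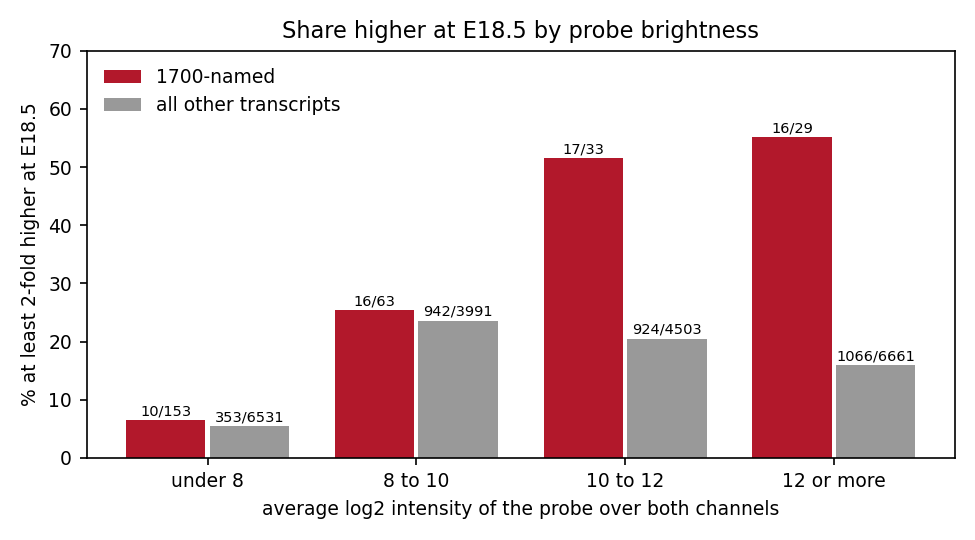
Percentage of transcripts at least 2-fold higher at E18.5 in 4 ranges of average log2 intensity, for 1700-named transcripts (red, left) and all other transcripts (grey, right), with counts above the bars. The bars are near each other under 10 and stand at 16 of 29 and 1066 of 6661 in the brightest range.

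Transcripts matched by symbol to genes of the axoneme made up a small group, uniform among those with a value. Of 11 transcripts whose current symbol was on a list of cilium and sperm flagellum genes, 10 gave a value and all 10 were 8-fold or more above E14.5 at E18.5, with a median log2 ratio of 4.17 (3.20 to 4.91). The remaining one, Cfap97d1, was not well above background at either age. Over the array, the list's genes without a 1700 name were at least 2-fold higher in 154 of 176 with a value (87.5%, median 3.27) and lower in 1, Sarnp, an mRNA export factor. The list was chosen with earlier results of these data known, so its direction is a description. Of its 282 symbols, 194 were matched to a gene on the array by the RefSeq names used. Listed genes that go by an older name there were not counted. The size and uniformity of the group therefore hold for the matched symbols only.

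The brightest of the 10 was Cfap126 (deposited as 1700009P17Rik), also called Flattop, which acts in docking and positioning basal bodies at the cell surface. Its normalized intensity was 109548 at E18.5 and 5574 at E14.5, a log2 ratio of 4.30 (19.7-fold), from a probe at chr1:172963507-172963566 on mm8. Saxo2 (deposited as 1700129I04Rik), a stabilizer of axonemal microtubules, had the largest ratio of the group, with 18753 at E18.5 and 626 at E14.5 (30.0-fold, probe at chr7:82509479-82509538), but its other 2 probes had log2 ratios of 1.21 and 1.78. Spaca9 (deposited as 1700026L06Rik), named for the sperm acrosome and also a protein inside ciliary microtubules, gave 39719 at E18.5 and 1338 at E14.5 (29.7-fold).

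Cfap299 (deposited as 1700007G11Rik), a cilia- and flagella-associated protein, gave 31652 at E18.5 and 1176 at E14.5, and Cfap157 (deposited as 1700019L03Rik), needed for the axoneme of mouse sperm, gave 6950.4 at E18.5 and 273 at E14.5. Their log2 ratios were 4.75 and 4.67. Cfap161 (deposited as 1700026D08Rik), whose Chlamydomonas counterpart lines the inner wall of ciliary microtubules, gave 23539 at E18.5 and 1426 at E14.5 (log2 ratio 4.04), and Pifo (deposited as 1700027A23Rik), or pitchfork, a regulator of ciliary disassembly, gave 24488 at E18.5 and 1717 at E14.5 (log2 ratio 3.83). These 4 genes had intensities from 273 to 1717 at E14.5 and were between 14.3-fold and 26.9-fold brighter at E18.5. Morn5 (deposited as 1700010A17Rik), a MORN-repeat protein, had a log2 ratio of 3.55 (25853 at E18.5 and 2213 at E14.5). Cfap206 (deposited as 1700003M02Rik), whose Tetrahymena counterpart sits at the base of a radial spoke, and Wdr38 (deposited as 1700123D08Rik), a WD-repeat protein, were the lowest of the group, at 3.47 and 3.20.

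**Figure D3:**
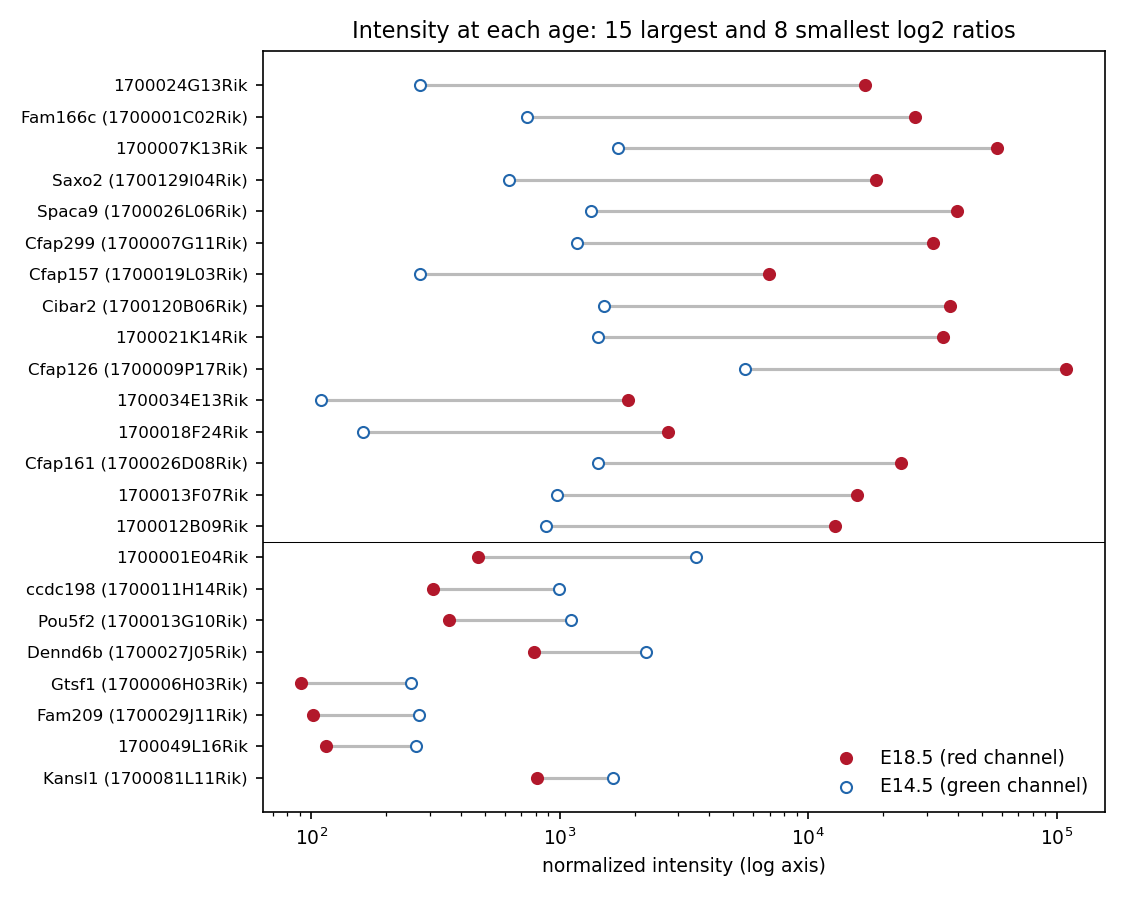
Normalized intensity on a log axis at E18.5 (filled) and E14.5 (open) for the 15 transcripts with the largest ratios (above the line) and the 8 with the smallest (below it), 1 value per age. The filled points lie to the right in all 15 of the upper rows and to the left in all 8 of the lower rows.

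The shares in each class stand beside 15.2% higher and 9.56% lower over all transcripts. The classes rest on the RefSeq names of GRCm38.p6. A gene that is on the axoneme list under a newer symbol was therefore counted outside it, and a RIKEN name here does not mean that a gene is uncharacterized. Outside the axoneme list, protein-coding genes that still had a RIKEN name in the table were higher at E18.5 in 21 of 63 with a value (33.3%), lower in 0, and within 2-fold in 42. Their median was 0.19, so the shift was carried by some of the genes and not by the class. Protein-coding genes that had since received another symbol were higher in 19 of 103 (18.4%), near the share over all, lower in 6 (5.83%) and within 2-fold in 78. Non-coding genes and pseudogenes were higher in 5 of 66 (7.58%), lower in 1 and within 2-fold in 60, and transcripts without a single match were higher in 4 of 36 (11.1%) and lower in 1. Protein-coding genes of all 3 classes together were higher in 50 of 176 (28.4%), and they supplied 27 of the 29 transcripts at 8-fold or more.

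**Figure D4:**
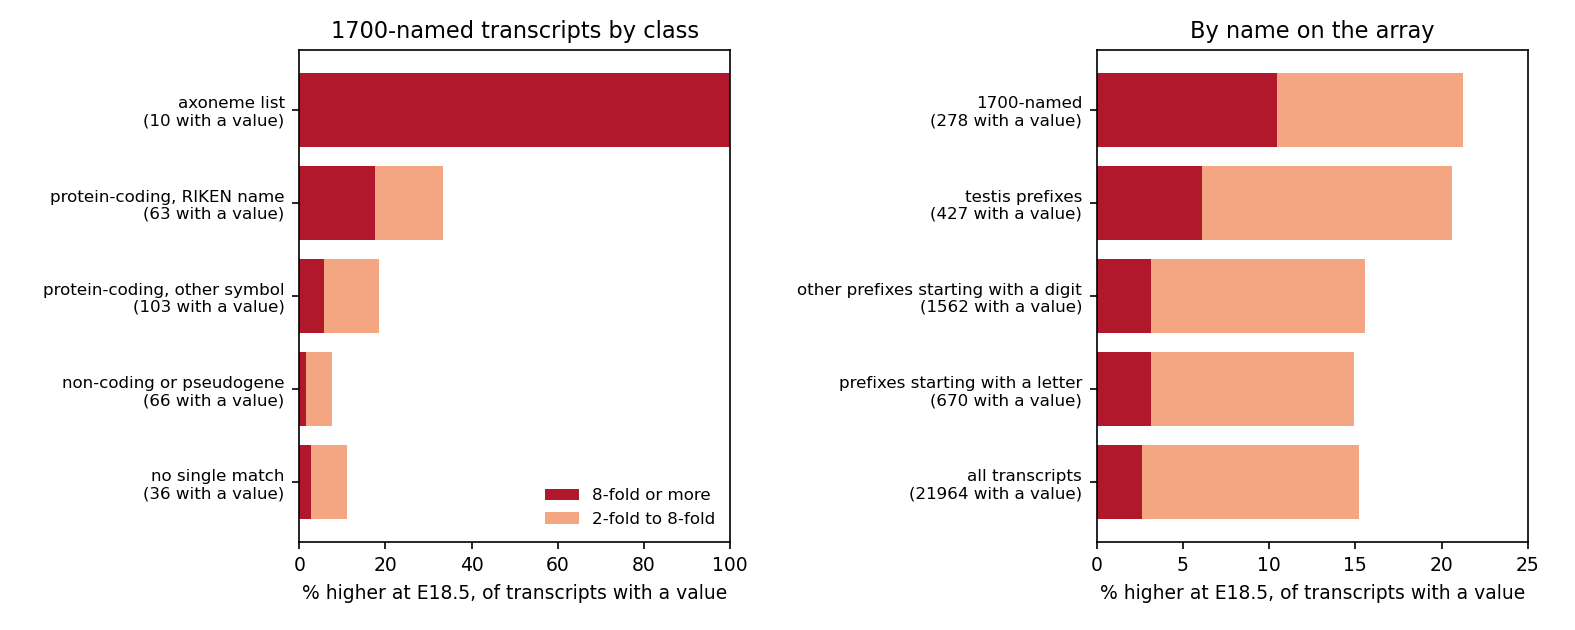
Percentage of transcripts with a value that were higher at E18.5, split at 8-fold, for the classes of 1700-named transcripts (left) and for transcripts grouped by name (right, on a shorter axis). The axoneme list is filled to 100%, and the non-coding class reaches 7.58%.

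The largest ratio of all belonged to the protein-coding gene 1700024G13Rik, with 17000.4 at E18.5 and 272 at E14.5, a log2 ratio of 5.96 (62.4-fold), from a probe at chr14:31205538-31205597 on mm8. 1700007K13Rik, which the table also lists as Rbest47, gave 57489.5 at E18.5 and 1715 at E14.5 (log2 ratio 5.07, probe at chr2:28284059-28284118), and its other probe had 2.63. 1700034E13Rik gave 1885 at E18.5 and 109 at E14.5 (log2 ratio 4.11). That transcript was near the lowest signal that counted as above background at E14.5 (83.4), and the log2 ratio from the software's processed signals was 5.58. Another dim one at E14.5 was 1700018F24Rik, with 2731 at E18.5 and 161 at E14.5 (log2 ratio 4.09).

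The other genes of this class at 8-fold or more were clearly measured at both ages. 1700094D03Rik was the brightest of them, with 39732 at E18.5 and 3082 at E14.5 (log2 ratio 3.69). 1700013F07Rik gave 15669.9 at E18.5 and 971 at E14.5 (4.01), 1700012B09Rik gave 12852 at E18.5 and 876 at E14.5 (3.87) and 1700029J07Rik gave 16969 at E18.5 and 1516 at E14.5 (3.48), the values in brackets being log2 ratios. 1700016C15Rik had a log2 ratio of 3.63 (2889 at E18.5 and 233 at E14.5), 1700028P14Rik had 3.33 (3793 at E18.5 and 376 at E14.5) and 1700037C18Rik had 3.05 (12092 at E18.5 and 1456 at E14.5). The second probe of 1700037C18Rik lay within 2-fold, at 0.83.

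Between 2-fold and 8-fold were 10 genes of the class. 1700003E16Rik (log2 ratio 2.94), 1700009N14Rik (2.80), 1700088E04Rik (2.76), 1700016K19Rik, which the table also lists as Liat1 (2.53), and 1700001L19Rik (2.45) were more than 4-fold higher. Of these, 1700088E04Rik was already well expressed at E14.5, with 22709.5 at E18.5 and 3341 at E14.5. The remaining 5, 1700123K08Rik, 1700030J22Rik, 1700010I14Rik, 1700029I15Rik and 1700001J03Rik, had log2 ratios from 1.06 to 1.62.

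Genes with a new symbol that was not matched to the axoneme list may still be axonemal under a newer name. Among them, Fam166c (deposited as 1700001C02Rik) had the largest ratio, with 26900.1 at E18.5 and 734 at E14.5 (log2 ratio 5.19, 36.6-fold, probe at chr5:30760476-30760535 on mm8). Its second probe had 2.73. Cibar2 (deposited as 1700120B06Rik), a BAR-domain protein that binds the basal body protein CBY1, gave 37141 at E18.5 and 1505 at E14.5 (log2 ratio 4.63). Armh1 (deposited as 1700012C08Rik), with an armadillo-like helical domain, gave 2939.7 at E18.5 and 277 at E14.5 (log2 ratio 3.41), and Cabcoco1 (deposited as 1700040L02Rik), a ciliary calcium-binding coiled-coil protein, gave 9032 at E18.5 and 982 at E14.5 (log2 ratio 3.20). Each of these 4 genes was more than 8-fold brighter at E18.5.

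The others of this class at 8-fold or more are named for different tissues. Lrmda (deposited as 1700112E06Rik), named for melanocyte differentiation, gave 9101 at E18.5 and 1009 at E14.5 (log2 ratio 3.17). Tbata (deposited as 1700021K02Rik), named for thymus, brain and testis, gave 933 at E18.5 and 116 at E14.5 (log2 ratio 3.0), and its second probe had 1.55. Fabp12, a fatty acid binding protein, followed at 2.71. Ccdc30, a coiled-coil protein, stood at 2.13 with other probes at 1.72 and 3.05, and Cib4, a calcium and integrin binding protein, at 2.01. The second probes of Fabp12 and Cib4 were not well above background at either age.

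Ratios close to 2-fold included genes that were bright at both ages. Ift43 (deposited as 1700019E19Rik), a subunit of the intraflagellar transport complex that returns cargo from the ciliary tip, was already bright at E14.5, with 25899 at E18.5 and 12251 at E14.5 (log2 ratio 1.08). Pgp (deposited as 1700012G19Rik), the phosphoglycolate phosphatase of sugar metabolism, gave 18062 at E18.5 and 8212 at E14.5 (log2 ratio 1.14), and Slc17a9, the vesicular nucleotide transporter, had a log2 ratio of 1.19. From the software's processed signals, Ift43 (0.94), Pgp (0.99), Tescl (0.99) and 1700029I15Rik (0.96) lay just within 2-fold. The remaining 7, Smim23, Fam71e1, Fam217a, Fam229b, Thegl, Tescl and Fbxw27, had log2 ratios from 1.11 to 2.03.

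The non-coding class and the transcripts without a single match held 9 of the 59 higher ones. Smkr-ps (deposited as 1700023L04Rik), named as a pseudogene and typed in RefSeq as a long non-coding RNA, had 1342 at E18.5 and 101 at E14.5 (log2 ratio 3.73) and was the only one of its class at 8-fold or more. The non-coding 1700095J03Rik had a log2 ratio of 2.12, and 1700020N18Rik, not well above background at E14.5, was at least 3.88-fold higher, with 336 at E18.5 and a measured 86.6 at E14.5. 1700063H04Rik and 1700018A04Rik lay just past 2-fold, at 1.04 and 1.01. Without a single match in the table, 1700021K14Rik gave 34741 at E18.5 and 1425 at E14.5 (log2 ratio 4.61), and its deposited description speaks of a cadherin structure. 1700045I19Rik (2.42), 1700041G16Rik (1.53) and 1700012L04Rik (1.03), which matches 3 H2A-like histone genes of testis, completed the set.

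Among the 6 brightest transcripts, 3 lay within 2-fold by the probe used. By its brighter probe, 1700073E17Rik, a transcribed pseudogene in RefSeq, was the brightest 1700-named transcript on the array (132889 at E18.5 and 94397 at E14.5, log2 ratio 0.49). Its other probe was not well above background at either age, with 82.7 at E18.5 and 84.8 at E14.5. Binding of the brighter probe to other copies was not tested. Oip5os1 (deposited as 1700020I14Rik), the conserved long non-coding RNA also called Cyrano, had 14072 at E18.5 and 14259 at E14.5 (log2 ratio -0.02). 1700029I01Rik, which matches the 3 zinc finger genes Zfp985, Zfp987 and Zfp991, had 9849.9 at E18.5 and 16751 at E14.5 (log2 ratio -0.77). Its other probes had log2 ratios of -0.83, -0.77 and -1.23, the last of them past 2-fold. High signal was thus found both with and without a 2-fold difference between the ages.

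The 8 transcripts that were lower at E18.5 had intensities from 90.7 to 807 at E18.5 and from 252 to 3549 at E14.5. The lowest ratio was that of 1700001E04Rik, which matches the 3 genes Gm10413, Gm5458 and Gm5797, so its signal may mix several genes. It gave 469 at E18.5 and 3549 at E14.5 (log2 ratio -2.92, a probe spanning chr14:4954215-4955229 on mm8), and its 5 probes had log2 ratios from -2.92 to -0.91. ccdc198, as RefSeq spells this coiled-coil protein gene, gave 308 at E18.5 and 989 at E14.5 (log2 ratio -1.68), and Pou5f2 (deposited as 1700013G10Rik), the sperm-type POU-domain transcription factor, gave 358 at E18.5 and 1107 at E14.5 (log2 ratio -1.63). Dennd6b (deposited as 1700027J05Rik), a DENN-domain exchange factor for Rab proteins, gave 788 at E18.5 and 2225 at E14.5 (log2 ratio -1.5), while its second probe lay at -0.34. Gtsf1 (deposited as 1700006H03Rik), a germ-line cofactor of the piRNA pathway, gave 90.7 at E18.5 and 252 at E14.5 (log2 ratio -1.48). Its second probe was not well above background at either age. Fam209 (-1.42), the pseudogene 1700049L16Rik (-1.20) and Kansl1, of a histone acetyltransferase complex (-1.02, other probes with a value at -0.41 and 0.08), made up the 8. The processed signals gave larger ratios for the dim ones among them, at -3.11 for Gtsf1, -3.20 for Fam209 and -2.20 for 1700049L16Rik.

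Beside the 1 bound past 2-fold, for 1700020N18Rik, bounds were smaller with the offset of 50. The next largest towards E18.5 were at least 1.86-fold for 1700101I11Rik, 1.74-fold for 1700049E15Rik, 1.73-fold for 1700084P21Rik and 1.54-fold for Ube2d2b. Towards E14.5 the largest were at least 1.79-fold for 1700010H22Rik, 1.53-fold for 1700049E17Rik, 1.52-fold for 1700093C20Rik, 1.32-fold for 1700086D15Rik and 1.14-fold for 1700039M10Rik. None of these reached 2-fold in the main setting. With an offset of 16, 1700101I11Rik (log2 1.25), 1700049E15Rik (1.18), 1700084P21Rik (1.16), 1700010H22Rik (-1.25) and 1700093C20Rik (-1.01) were past it, and with the processed signals so were Ube2d2b (1.42) and 1700049E17Rik (-2.01) as well. Each compares the bright channel's value with the higher of the dim channel's floor (63.2 at E18.5, 83.4 at E14.5) and the dim spot's own signal, and is open to dye bias.

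Near the threshold, the nearest measured transcripts just past it were 1700018A04Rik (1.01) and 1700012L04Rik (1.03), and just short of it were Rubcn, a regulator of autophagy (0.95, with 11263 at E18.5 and 5848 at E14.5), and 1700031C06Rik (0.93). On the lower side, Kansl1 (-1.02) and 1700049L16Rik (-1.20) were past it and Prr30 (-0.91) and Spem1 (-0.89) short of it. All 8 lay nearer to the threshold than the median SD between probes of a transcript (0.25).

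A list of germ cell genes outside the axoneme held 7 of the 1700-named transcripts, of which 5 gave a value and all 5 lay within 2-fold: Spem1, needed to shed sperm cytoplasm (-0.89), Pdilt, a testis chaperone (-0.43), Actl9, an actin-like protein of the sperm head (-0.19), and Izumo2, a relative of the sperm-egg fusion protein (-0.14), were measured at both ages, and Spaca7, of the acrosome, had a bound of 1.06-fold. Their intensities, from 88.6 to 113 at E18.5 and from 87.4 to 192 at E14.5, lay near the floor. Izumo3 and the histone H2bl1 were not well above background at either age. Over the array, the list's 76 genes with a value had a median log2 ratio of 0.02, with 10 higher (13.2%) and 3 lower (3.95%), beside 15.2% and 9.56% over all transcripts. Other 1700-named transcripts with a germ-line role or match were past 2-fold, as given above: Pou5f2 and Gtsf1 were lower, and 1700012L04Rik was higher.

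Gene families with sperm or testis names were chosen after their values were seen, and they are too small to be read against the 15.2% higher and 9.56% lower over all transcripts. Such a name does not place a gene off the axoneme list, because listed genes under an older symbol were not matched. Of 10 transcripts with a Tex symbol, 5 gave a value and 0 were past 2-fold; the only bright one was Tex30 (deposited as 1700029F09Rik), with 5545 at E18.5 and 8389.8 at E14.5 (log2 ratio -0.60). Of 6 serine proteases with a Prss symbol, 2 gave a value and 0 were past 2-fold, and likewise 3 of 4 with a Spata symbol gave a value and 0 were past 2-fold. All 3 parts of the CatSper calcium channel of sperm, Catsperz (-0.06), Catsperg2 (-0.16) and Efcab9 (0.05), lay within 2-fold, with intensities from 114 to 430.0 at E18.5 and from 127 to 447 at E14.5. Of 4 transcripts with an Izumo or Spaca symbol, 3 gave a value, and 1 of them, Spaca9 (4.89), was higher. Of 6 transcripts with a Cfap symbol, 5 gave a value and all 5 were higher, between 3.47 and 4.75 on the log2 scale.

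Probes of the same transcript set the scale of technical error. Over 42 transcripts with at least 2 probes with a value, the median SD of the log2 ratio between probes was 0.25, against 0.33 over 7510 transcripts of any name, and repeated spots of 1 probe had a median SD of 0.05 over 245 probes, none of them a 1700-named one. In 10 transcripts the probes with a value differed by 1 or more, and in 0 did they lie past 2-fold in opposite directions. Probes not well above background at either age are left out of these counts. Transcripts past 2-fold by the probe used that also had a probe of this kind included Fabp12, Cib4, Gtsf1 and Kansl1. Saxo2 had the widest gap (1.21 to 4.91). Fam177a was the only one of the 10 within 2-fold by its brightest probe (0.82) with another past it (1.87). For 4 genes a probe under another deposited name also gave a value, and both probes lay within 2-fold in all 4: Tbck, Fam178b, Cux2 and Arid2. Neither spread covers differences between animals or dissections.

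**Figure D5:**
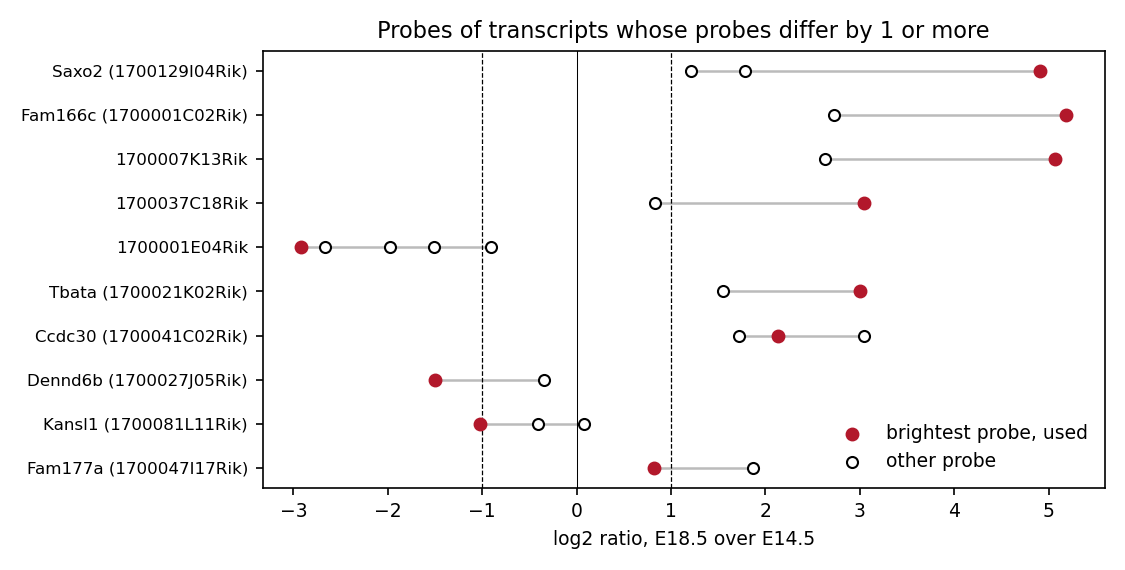
Log2 ratios (E18.5 over E14.5) of each probe with a value for the 10 transcripts whose probes differ by 1 or more. Filled points are the brightest probe, which was used, and open points the others; dashed lines mark 2-fold. The probes of Saxo2 run from 1.21 to 4.91, and the 5 of 1700001E04Rik from -2.92 to -0.91.

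Full X-boxes were rare but present. Among protein-coding transcripts past 2-fold towards E18.5, 38 of 50 genes had a promoter in the table, with 45 windows in all because some genes have several starts, and 4 windows (8.89%) held GTTNCCNNGGNAAC. They belonged to Pifo, 1700029J07Rik, 1700088E04Rik and 1700010I14Rik, between 5 and 25 bases before the start. The share was 0.746% (1 of 134 windows) among those within 2-fold or lower, 1.82% (1 of 55) among those below background at both ages, and 0.428% (91 of 21263) over all protein-coding promoters of the same length. The letters were chosen after the values were seen, and no test was made.

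The shorter motifs separated the groups less. GTTGCC was in 28.9% of the windows of the higher transcripts, 22.4% of those within 2-fold or lower and 12.6% of all protein-coding promoters, and GTTNCC, which includes it and each arm of the X-box, was in 80.0%, 56.0% and 45.3%. TGTTTAC was in 4.44% (2 of 45 windows), 1.49% (2 of 134) and 3.01%. That of Fam166c lay 19 bases before the start. Mean GC content was 55.4%, 54.8% and 56.2% in the 3 sets. A match is a description of the letters and does not show binding.

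Markers of cell types also differed between the samples, where 15.2% of all transcripts were higher and 9.56% lower. All 8 multiciliated markers with a probe were past 2-fold towards E18.5, with summed intensities of 206687 at E18.5 and 25167 at E14.5. Apart from Tubb4b, these genes are also on the axoneme list, so their values are not separate from those above. Also past 2-fold towards E18.5 were 7 of 10 leukocyte markers (161205 at E18.5 and 5091 at E14.5) and 4 of 9 endothelial markers (112256 at E18.5 and 19675 at E14.5). At E18.5 most of the leukocyte sum came from Lyz2 alone (146915 at E18.5 and 1769 at E14.5). Most of the endothelial sum at that age came from Kdr alone (71669 at E18.5 and 4090 at E14.5). Of 9 mesenchyme and smooth muscle markers, 0 were higher and 3 lower (436547 at E18.5 and 510211 at E14.5). Of 5 erythroid markers, 3 were higher and 1 lower (522716 at E18.5 and 92993 at E14.5), and of 7 epithelial markers, 2 were higher and 1 lower (408085 at E18.5 and 262191 at E14.5). No marker was below background at both ages, and the part of any of these cell types in the values above was not tested.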

How the data were processed

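The scanner tables hold each spot's mean and local median background intensity in both channels as deposited, with processed intensities and a log10 ratio by the scanner software, per the file headers (the submitters' processing notes name Agilent Feature Extraction 9.5.3.1). Deposited flags mark control spots, outliers, saturation (0 probe spots) and signal well above background. Both tables were identical in 115 of 115 columns and were read as 1 array. The authors' deposited value table holds linear intensity, equal to the processed intensity times 0.339 with a floor of 15 (medians of 130.2 at E18.5 and 129.1 at E14.5), so its scale and direction are known, no centring was found, and the sources used here do not say where the constant comes from. It holds 0 columns of other samples.

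Here, intensities were corrected with normexp (offset 50) and normalized with limma 3.58.1 in R 4.3.3 (loess with a span of 0.3 and 4 iterations), then handled in Python 3.11.15 (numpy 2.4.6, pandas 2.3.3, matplotlib 3.10.9). The offset pulls dim ratios towards 0, and loess hides a shift common to most probes. Of 45018 spots, 1639 controls and 160 outliers were left out. A transcript took its brightest probe well above background in at least 1 channel, and calls were by size, at 2-fold. The steps were tested on simulated data. There, few probes were changed, evenly up and down, and all were well above background in both channels. It therefore does not cover dim probes or uneven change.

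The median background-subtracted intensity was 308.5 at E18.5 and 256.5 at E14.5, with 78.6% and 75.1% of probes well above background. The number of arrays, 1, limits the precision.

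Current names came from RefSeq (GRCm38.p6) by accession (131 transcripts), symbol (148) or synonym (83), and probe coordinates are on mm8, per the file headers; exon or UTR positions were not determined. The transcripts and gene lists were chosen with earlier results of these data known. Named by rule were the 15 largest and 8 smallest ratios, the 5 largest bounds a side, the 6 brightest, the 8 axoneme genes farthest from 0, probe gaps of 1 or more and the 2 values nearest to the threshold a side; the other transcripts past 2-fold were added as a full account.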

Additional observations from a re-analysis of the deposited data

How the results depend on the processing

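No paired analysis was possible because each age has 1 sample. The count of 1700-named transcripts at least 2-fold higher ran from 58 to 66 over 7 alternatives to the main setting (59), and 54 transcripts were past 2-fold in all 8. The count of axoneme genes at least 2-fold higher stayed at 10 under each of them. Past 3-fold were 45 of the 59, and no called direction was reversed. Calls of lower transcripts depended on the source of the signals: with the scanner software's processed signals 28 of the 1700-named, 40 of the other testis prefixes and 3468 of all transcripts were at least 2-fold lower, and with the authors' processed values they numbered 27, 35 and 3349, against 8, 15 and 2100 in the main setting. At 3-fold, lower transcripts numbered 3, 6 and 769, and higher ones 54 of the other testis prefixes, 1888 of all and 6 of the germ cell list. The cause was not tested. Of 33 named transcripts, 18 moved by more than 0.33 with the processed signals, 15 in the value table, 9 with an offset of 16 and 7 with the median over probes. The median of all transcripts was 0.04 in the main setting, -0.08 with the processed signals, -0.07 in the value table and 0.10 with median centring. Dim transcripts, with 153 of 278 under 8 in average log2 intensity, have the least certain ratios.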

Other observations

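The 59 higher transcripts were spread over the genome, on all 19 autosomes and the X chromosome, with the most on chromosomes 2 (7 of 25 with a value) and 5 (7 of 23). At E18.5 they had intensities from 219 to 109548 with a median of 3793, and at E14.5 from 86.6 to 12251 with a median of 504.5, and 58 of the 59 were well above background at both ages. The 211 within 2-fold had medians of 148 at E18.5 and 152 at E14.5.

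Beyond the 1700 names, 10 genes of the germ cell list were past 2-fold towards E18.5. They included Ccna1, the meiotic cyclin A1 (log2 ratio 3.92), Calr3, a testis calreticulin (3.02), Hspa2, a heat shock protein of spermatocytes (2.80), and Adam5, a sperm-surface protease relative (2.30). The 3 lower ones were Tdrd1, a Tudor-domain protein of the piRNA pathway (-1.58), the acrosin-binding protein Acrbp (-1.18) and Adam1a (-1.10). These genes were chosen after their values were seen.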
